A study of Homo sapiens with 9 samples.

Results

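The genes described here are 50 genes of neurons and synapses, chosen by symbol from the neuronal cytoskeleton, axonal and synaptic adhesion, RNA-binding and synaptic vesicle genes, with some neuronal enzymes and secretory granule genes and 1 transcription factor. They were chosen with earlier results of these data known. These genes were followed through 9 RNA-seq libraries of 3 human cell lines to ask whether neuronal genes rise when BASP1 is expressed. Of the 63677 Ensembl identifiers in the count files, 49 carried 1 of these symbols, and 46 of those had at least 1 count in the 9 libraries. NEFL, the neurofilament light chain, was not matched to an identifier and is not analysed here.

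SW480 is a hypotriploid cell line from a human colorectal adenocarcinoma, grown here as the unmodified (wild type) control, in which BASP1 is nearly silent. SW480-B is a derivative that expresses the BASP1 coding sequence from the CMV promoter of pcDNA3 after nucleofection and geneticin selection, and it goes back to single cell cloning, so that it stands for 1 clone. SW480-gRNA-B-all cells carry lentiviruses for MS2-P65-HSF1 and dCas9-VP64, were cloned from a single cell at that stage, so that they too stand for 1 clone, and then received pooled sgRNAs against the BASP1 promoter, which switch on the endogenous gene. Each line gave 3 libraries (n = 3), all with the same batch date in the labels. The unmodified SW480 cells carry neither vector nor sgRNA, and no empty-vector line was sequenced among these libraries, so that the expression of BASP1 and the making of each line cannot be told apart. The labels number the libraries of a line from 1 to 3 without saying that they come from separate cultures, and the p-values measure the spread between these libraries, which may be technical.

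Neurofilaments, microtubule-associated proteins and neuronal tubulins build the axon and the dendrite. Adhesion molecules of the immunoglobulin, neurexin and neuroligin families join axons to their partners, and synaptotagmin, synaptobrevin, SNAP25 and syntaxin drive the fusion of synaptic vesicles. Many of these genes are held silent outside the nervous system by the repressor REST, and several are expressed in neuroendocrine cells and in tumors of epithelial origin. BASP1 is itself a protein of growth cones and a transcriptional corepressor.

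Each library held between 25238831 and 29355669 counts on genes. At this depth, 0 counts in a library allow up to 3 counts, or 0.1002 to 0.116 CPM (counts scaled to library size, with edgeR's TMM factors), and this limit, like every interval below, covers counting error only. BASP1 had between 0.691 and 11.9 CPM in SW480, between 250.3 and 268 CPM in SW480-B and between 167 and 303.4 CPM in SW480-gRNA-B-all. Colonic epithelium markers summed to between 6331 and 11359 CPM in the 9 libraries, with CDH17 at 0 counts in both BASP1-expressing lines and CDX1 at 0 in SW480-B. Most of that sum came from the keratins KRT8 and KRT18. CDX2, an intestinal transcription factor, averaged 34.3 CPM in SW480 and 61.4 CPM in SW480-B but 3.53 CPM in SW480-gRNA-B-all (edgeR adjusted p = 0.0090 against SW480), and VIL1, villin of the brush border, averaged 250.1, 31.9 and 11.5 CPM in the same order (edgeR adjusted p = 0.025 in SW480-B, 0.019 in SW480-gRNA-B-all). These 2 and CDH17 were the colonic markers that edgeR called against SW480, all lower, alongside the members' changes given below, and their part in those changes was not tested. By contrast, 10 markers of mature neurons outside the list summed to between 1.20 and 8.46 CPM, with RBFOX3 and SLC17A6 at 0 in every line. Markers of enteroendocrine cells summed to between 0.768 and 3.24 CPM, and NEUROG3, PAX4 and SST were at 0 in every line. In bulk RNA, fewer cells with a transcript and less of it per cell cannot be told apart. Replicates 2 and 3 of SW480-gRNA-B-all were far more alike than any other pair, with 0.247% of genes over 2-fold apart against 8.88% to 29.4%, yet differed by more than sampling noise (median chi-square per gene 0.906 against 0.455), and they were kept as separate libraries. Results of this line are also given with these libraries summed.

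In sequence, the members' promoters were rich in CpG. RefSeq's promoter table (GRCh38.p14, 250 bases before to 50 after the start) held 36 of the 50 members, with a median GC content of 65% against 58.3% over all 27305 promoters and a median observed over expected CpG ratio of 0.807 against 0.580. The letters TATAAA, searched on both strands, stood in 7 of the 36 (12.0% of all promoters), among them ELAVL2, where they begin 32 bases before the start. The letters CTTTGAT, a core of TCF binding sites, stood in 0 of the 36 (2.64% of all promoters). Of the repressor element read by REST, the left letters CAGCACC stood in 3, NLGN1, SYN1 and NOVA1 (7.64% of all), and the right letters GGACAGC in 0 (6.11% of all). A match is only a match of letters, and the start used in these cells was not measured. The promoters of 3 members that were lower in SW480-gRNA-B-all, shown as examples with few, more and many CG, are printed below 5′ to 3′ with each CG in capitals. They hold 6, 20 and 29 CG, against 1 to 51 over the 36 promoters, and lie at chr12:40827934-40828233 (CNTN1, plus strand), chr9:23826191-23826490 (ELAVL2, minus strand) and chr5:147510019-147510318 (DPYSL3, minus strand).
CNTN1: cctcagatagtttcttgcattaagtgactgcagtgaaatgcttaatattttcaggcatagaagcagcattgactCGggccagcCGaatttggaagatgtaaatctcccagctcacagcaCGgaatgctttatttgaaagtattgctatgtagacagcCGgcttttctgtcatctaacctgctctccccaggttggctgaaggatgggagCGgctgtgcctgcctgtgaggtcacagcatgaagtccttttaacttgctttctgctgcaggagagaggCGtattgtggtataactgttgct
ELAVL2: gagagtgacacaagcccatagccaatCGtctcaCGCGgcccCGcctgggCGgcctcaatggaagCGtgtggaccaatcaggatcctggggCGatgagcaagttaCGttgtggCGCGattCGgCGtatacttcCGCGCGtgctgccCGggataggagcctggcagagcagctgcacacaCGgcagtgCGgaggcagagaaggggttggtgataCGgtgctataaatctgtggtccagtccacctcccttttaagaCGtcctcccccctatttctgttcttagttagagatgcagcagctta
DPYSL3: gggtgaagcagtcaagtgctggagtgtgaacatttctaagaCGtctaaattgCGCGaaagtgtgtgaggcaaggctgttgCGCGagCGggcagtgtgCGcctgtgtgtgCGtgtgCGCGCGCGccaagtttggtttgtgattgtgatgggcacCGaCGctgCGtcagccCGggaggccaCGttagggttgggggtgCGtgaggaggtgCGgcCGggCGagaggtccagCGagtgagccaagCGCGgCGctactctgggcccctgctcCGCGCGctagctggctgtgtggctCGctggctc

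SW480 cells already transcribed many of these genes. A mean of at least 1 CPM was reached by 37 members in SW480, 28 in SW480-B and 23 in SW480-gRNA-B-all, and a mean of at least 10 CPM by 23, 18 and 17. Per kilobase of exon, the highest members of SW480 were TUBB2B, a neuronal beta-tubulin, at 40.3 CPM per kilobase (27.7 to 51.0 in the 3 libraries), NELL2, a secreted protein with EGF-like repeats, at 30.4 (25.1 to 34.5), and L1CAM, an axonal adhesion molecule, at 22.9 (10.4 to 32.0). These ranges overlap, so that neighbours in this order did not differ beyond their spread. In SW480-B, NELL2 led at 53.7 CPM per kilobase (43.8 to 59.6), and in SW480-gRNA-B-all, TUBB2B led at 41.8 (36.7 to 44.4) and NELL2 was no longer among the 10 highest.

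At the other end, 12 members stayed under a mean of 1 CPM in every line. NEFM (a neurofilament subunit), DCX (doublecortin, of migrating neurons) and GPM6A (a neuronal membrane glycoprotein) had 0 counts in all 9 libraries. NEFH, INA, STMN2, ELAVL3, ELAVL4, NOVA1 and SCG2 had counts but too few to pass the filter of the edgeR test in any comparison, and the highest value among them was 0.586 CPM, of NOVA1 in SW480. NOVA1, a splicing regulator, had 26 counts in SW480 and 0 in each other line, at least 9.06-fold lower in SW480-gRNA-B-all and at least 8.33-fold lower in SW480-B, against 3 counts over a line. DESeq2 called NOVA1 lower in the first of these lines, and edgeR without a filter called it lower in the second.

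Between SW480-gRNA-B-all and SW480, no member rose and 12 fell. The quasi-likelihood test of edgeR was used, adjusted over all genes after Benjamini and Hochberg, and calls needed an adjusted p under 0.05 with more than a 2-fold change. Fold changes are given on the log2 scale ± the standard error. Of all 16100 genes with enough counts to be tested, 1.89% passed as higher and 4.66% as lower. Of the 38 members tested, 0 were called higher (4 at an unadjusted p under 0.05 from edgeR, 2 by DESeq2, RTN1 and CHGB) and 12 lower, which are MAP2, DPYSL3, GPM6B, NCAM1, CHL1, CNTN1, NRXN3, SYT1, ELAVL2, GAD1, NELL2 and NEUROD1. DESeq2 called 18 lower, these 12 and TUBB3, DPYSL4, NLGN1, SYP, SYT11 and NOVA1. The median log2 fold change over the tested members was -1.15, against -0.05 over all genes tested. In 15 members all 3 libraries lay below all 3 of SW480 (20% of all genes), and in 4 they lay above (18%). Of the 12, GPM6B, CHL1, NRXN3, ELAVL2 and NEUROD1 had under 10 counts in every SW480-gRNA-B-all library and entered the test only through SW480, so they had to differ. MAP2, CNTN1 and SYT1 had under 10 counts in replicates 2 and 3 of SW480-gRNA-B-all and also passed the filter only through SW480. The count and the median are a description and not support for a direction.

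The calls in this line rest on few libraries. Without replicate 2 of SW480, 0 of the members were called (edgeR; 15 lower and 4 higher at an unadjusted p under 0.05). Over all genes, 1 was then called higher and 7 lower. Without replicate 2 or replicate 3 of SW480-gRNA-B-all, and with both summed, the members called were DPYSL3, CNTN1 and NELL2 (3 in each fit). In these fits 63, 62 and 77 of all genes were called lower. Leaving out replicate 1 of SW480-gRNA-B-all left 6 called, leaving out replicate 1 of SW480 left 9, and leaving out replicate 3 of SW480 gave 18. Beside these, 144, 683 and 1698 of all genes were called lower, so the counts of members moved with those of all genes.

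Between SW480-B and SW480, 5 members fell and 0 rose in the edgeR fit that did not pair the libraries. With the replicate number as a block, 7 fell and 1 rose. Of all 16106 genes in the fit without the block, 0.0931% passed as higher and 1.25% as lower. Of the 39 members tested, those called lower were DPYSL3, GPM6B, CNTN1, NRXN3 and NEUROD1, and each of them was also called lower in SW480-gRNA-B-all, which was measured against the same SW480 libraries. None was called higher (4 at an unadjusted p under 0.05 from edgeR; DESeq2 called 1, SNAP25). DESeq2 called 9 lower, the 5 genes above and MAP2, CHL1, SYT1 and ELAVL2. With the replicate number as a block, MAP2 (adjusted p = 0.028) and CHL1 (adjusted p = 0.038) joined the genes called lower and MAP1B was called higher (adjusted p = 0.029), by the same edgeR test. The median log2 fold change over the tested members was -0.41, against -0.004 over all genes tested, and 0.01 when only genes with at least 1 CPM in 3 libraries were tested. In 10 members all 3 libraries lay below those of SW480 (11.8% of all genes) and in 4 above (10.6%). GPM6B and NEUROD1 had under 10 counts in every SW480-B library and entered through SW480. NRXN3 had under 10 counts in replicate 3 of SW480-B and also passed the filter only through SW480. Leaving out any 1 library of SW480-B left 0 members called (edgeR; 9 or 10 lower and 2 to 4 higher at an unadjusted p under 0.05), leaving out replicate 2 of SW480 left CNTN1 alone, leaving out replicate 1 of SW480 left 4, and leaving out replicate 3 of SW480 gave 10. Over all genes, 0, 0 and 14 were called lower without replicates 1, 2 and 3 of SW480-B. Without replicates 2, 1 and 3 of SW480, 55, 199 and 695 were.

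**Figure D1:**
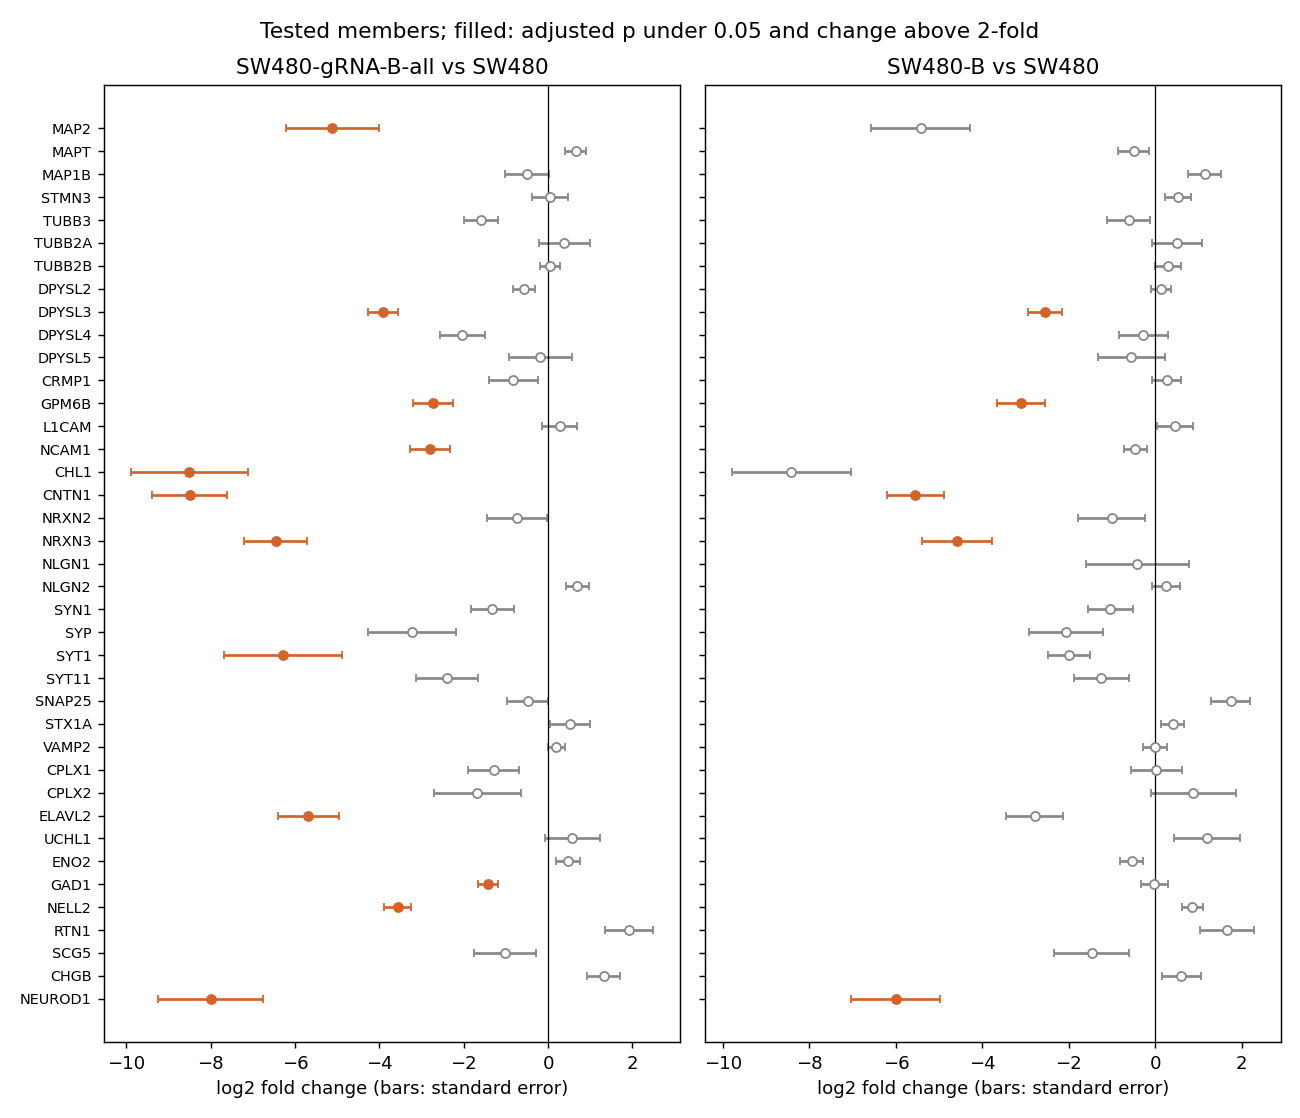
The log2 fold change of each member tested against SW480, with SW480-gRNA-B-all at the left and SW480-B at the right. Bars are standard errors, and filled points mark genes with an adjusted p under 0.05 and a change above 2-fold. Of the filled points, 12 at the left and 5 at the right lie below 0 and none above. The fitted values of CHL1 and NEUROD1, which had 0 or 1 count in a line, depend on the prior count.

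Of the 10 membrane and adhesion genes, 5 of the 8 tested fell in SW480-gRNA-B-all (62.5%, against 4.66% of all genes) and 3 of the 9 tested in SW480-B (33.3%, against 1.25%). Of the 5, GPM6B, CHL1, NRXN3 and CNTN1 entered the test only through SW480, and so did GPM6B and NRXN3 in SW480-B. CNTN1 (ENSG00000018236, chromosome 12 of GRCh37, 41086241 to 41466217) encodes contactin 1, an adhesion molecule of axons held in the membrane by a lipid anchor. CNTN1 had 153, 126 and 27.2 CPM in SW480, 1.70, 2.92 and 1.77 CPM in SW480-B, and 0.508, 0.134 and 0.200 CPM in SW480-gRNA-B-all. Every library of each BASP1-expressing line lay below every SW480 library, and replicate 3 of SW480 was the lowest of its line. CNTN1 changed by -8.50 ± 0.90 in SW480-gRNA-B-all (edgeR adjusted p = 0.0078) and -5.55 ± 0.67 in SW480-B (edgeR adjusted p = 0.012). When libraries were left out in turn, 5 of 6 fits called it in the first line, all but that without replicate 2 of SW480 (edgeR adjusted p = 0.053), and 3 of 6 in the second. The call in SW480-gRNA-B-all was also made with its replicates 2 and 3 summed (edgeR adjusted p = 0.044).

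NRXN3 (ENSG00000021645, chromosome 14, 78636716 to 80334634), the presynaptic neurexin 3, had 14.0, 14.9 and 4.40 CPM in SW480, 0.464, 0.820 and 0.0707 CPM in SW480-B, and 0.237, 0.0668 and 0.0668 CPM in SW480-gRNA-B-all. The lines did not overlap with SW480. Its log2 fold change was -6.45 ± 0.75 in SW480-gRNA-B-all (edgeR adjusted p = 0.0090) and -4.58 ± 0.81 in SW480-B (edgeR adjusted p = 0.041). Summing replicates 2 and 3 in the first line took it out of the calls (edgeR adjusted p = 0.053). CHL1 (ENSG00000134121, chromosome 3, 238446 to 451100), a close relative of L1CAM, had 2.24, 2.00 and 0.400 CPM in SW480 and 0 counts in all 6 libraries of the other lines. Against 3 counts over a line it was at least 46.7-fold lower in SW480-gRNA-B-all (edgeR adjusted p = 0.034) and at least 42.9-fold lower in SW480-B (edgeR adjusted p = 0.052, and 0.038 with the replicate block). GPM6B (ENSG00000046653, chromosome X, 13789058 to 13956757), a membrane glycoprotein of neurons and glia, had 2.07, 1.96 and 0.909 CPM in SW480, 0.232, 0.178 and 0.141 CPM in SW480-B, and 0.203, 0.300 and 0.234 CPM in SW480-gRNA-B-all. Its exons overlap those of OFD1 on the opposite strand, which had 10655 counts against 179, and since the strand setting of the counting is not given in the sources used here its reads are uncertain. Its log2 fold change was -2.73 ± 0.47 in SW480-gRNA-B-all (edgeR adjusted p = 0.023) and -3.10 ± 0.56 in SW480-B (edgeR adjusted p = 0.042).

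NCAM1 (ENSG00000149294, chromosome 11, 112831997 to 113149158), the neural cell adhesion molecule, fell in SW480-gRNA-B-all. It had 70.9, 77.8 and 83.8 CPM in SW480, 35.9, 62.2 and 66.4 CPM in SW480-B and 3.96, 15.9 and 13.8 CPM in SW480-gRNA-B-all. SW480 was uniform here, and all 3 libraries of both other lines lay below it. NCAM1 changed by a log2 fold of -2.80 ± 0.48 in SW480-gRNA-B-all (edgeR adjusted p = 0.024) and -0.46 ± 0.26 in SW480-B (edgeR adjusted p = 0.43). The other adhesion genes with at least 10 CPM did not pass the test. L1CAM had 75.4, 191 and 233 CPM in SW480, 247, 271 and 149 CPM in SW480-B and 267, 172 and 166 CPM in SW480-gRNA-B-all, with overlap between all lines. NLGN2, a neuroligin of inhibitory synapses, had 14.5, 25.02 and 25.8 CPM in SW480, 32.5, 18.7 and 24.6 CPM in SW480-B and 27.9, 36.6 and 41.4 CPM in SW480-gRNA-B-all, where all 3 libraries were above SW480 (log2 fold change 0.69 ± 0.27, edgeR adjusted p = 0.15). NLGN1, a neuroligin of excitatory synapses, had 56 counts in SW480 but none in SW480-gRNA-B-all, at least 19.5-fold lower, but was under the filter of the edgeR test there (without a filter it was called lower). NRXN2 had a mean of 1.11 CPM or less in each line and was not called.

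**Figure D2:**
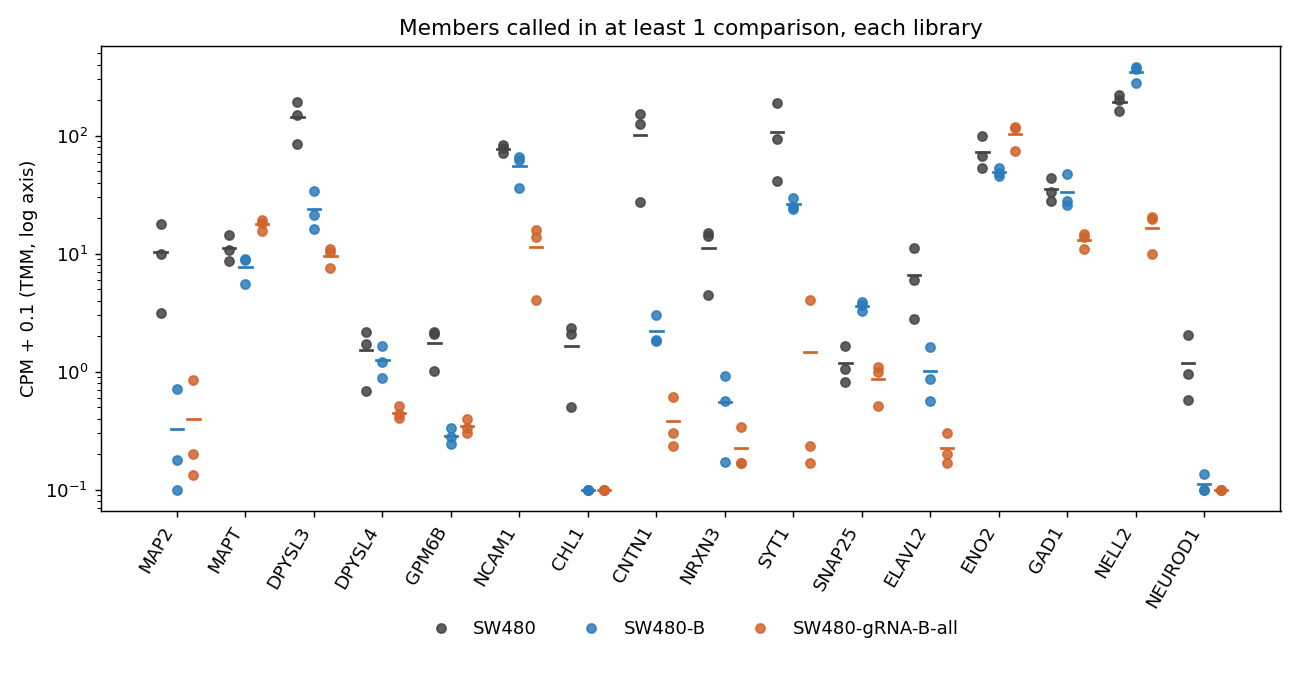
CPM plus 0.1 on a log axis for the 16 members called in at least 1 of the 3 comparisons. Each point is 1 library, each short bar the mean of the 3 libraries of a line. CNTN1, NRXN3, CHL1 and NEUROD1 lie far below SW480 in both BASP1-expressing lines, whereas NELL2, NCAM1 and GAD1 are low in SW480-gRNA-B-all and near or above SW480 in SW480-B.

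Among the collapsin response mediators, cytosolic proteins that act downstream of semaphorins on the growth cone, 1 of 5 fell in each line. DPYSL3 (ENSG00000113657, chromosome 5, 146770371 to 146889631) had 151, 193 and 84.2 CPM in SW480, 16.2, 34.1 and 21.3 CPM in SW480-B, and 7.49, 10.2 and 10.8 CPM in SW480-gRNA-B-all. The 3 lines did not overlap, with SW480 highest. DPYSL3 changed by -3.92 ± 0.35 in SW480-gRNA-B-all (edgeR adjusted p = 0.0054) and -2.55 ± 0.38 in SW480-B (edgeR adjusted p = 0.025). It was called in 5 of 6 fits without 1 library in SW480-gRNA-B-all, all but that without replicate 2 of SW480 (edgeR adjusted p = 0.0503), and with replicates 2 and 3 of that line summed (edgeR adjusted p = 0.039). In SW480-B it was called in 2 of 6. DPYSL4 was low throughout, with 2.07, 1.62 and 0.582 CPM in SW480, 1.55, 1.10 and 0.777 CPM in SW480-B and 0.406, 0.334 and 0.301 CPM in SW480-gRNA-B-all, where all libraries were below SW480 (log2 fold change -2.03 ± 0.54, edgeR adjusted p = 0.064). The more abundant paralogs overlapped with SW480 in both other lines and were not called against it. DPYSL2 was lower in every library of SW480-gRNA-B-all than in SW480-B, but was not called (edgeR adjusted p = 0.16). DPYSL2 had 89.8, 130 and 117 CPM in SW480, 110, 148 and 103 CPM in SW480-B and 49.0, 90.3 and 88.5 CPM in SW480-gRNA-B-all. CRMP1 had 39.8, 47.7 and 19.8 CPM in SW480, 43.7, 49.8 and 32.6 CPM in SW480-B, and 39.5, 10.3 and 11.2 CPM in SW480-gRNA-B-all, so that its low values in the last line came from replicates 2 and 3. DPYSL5 differed more within lines than between them, with 3.75, 22.7 and 36.2 CPM in SW480, 6.18, 9.30 and 25.8 CPM in SW480-B and 8.57, 23.1 and 23.7 CPM in SW480-gRNA-B-all.

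Of the microtubule proteins and tubulins, MAP2 was the 1 called against SW480 by edgeR with all libraries of the pair of lines and no replicate block. MAP2 (ENSG00000078018, chromosome 2, 210288771 to 210598871), the microtubule-associated protein of dendrites, had 17.8, 9.79 and 3.02 CPM in SW480, 0.0773, 0.606 and 0 CPM in SW480-B, and 0.745, 0.0334 and 0.1002 CPM in SW480-gRNA-B-all. Neither line overlapped with SW480. Its log2 fold change was -5.11 ± 1.11 in SW480-gRNA-B-all (edgeR adjusted p = 0.040), called in 1 of 6 fits without 1 library, and -5.43 ± 1.14 in SW480-B (edgeR adjusted p = 0.070; with the replicate block 0.028). MAP1B, expressed early in growing axons, had 217, 189 and 101 CPM in SW480, 477, 409 and 207 CPM in SW480-B and 224, 66.2 and 71.9 CPM in SW480-gRNA-B-all. In SW480-B its lowest library lay below the highest of SW480, but each library was above the same-numbered one of SW480. The log2 fold change of MAP1B in SW480-B was 1.14 ± 0.39 (edgeR adjusted p = 0.22; with the replicate block 0.029). MAPT, the axonal tau protein, had 8.50, 14.2 and 10.7 CPM in SW480, 8.85, 5.42 and 8.66 CPM in SW480-B and 15.3, 18.1 and 19.3 CPM in SW480-gRNA-B-all. All 3 libraries of SW480-gRNA-B-all were above both other lines, but the difference from SW480 did not pass (log2 fold change 0.65 ± 0.25, edgeR adjusted p = 0.14). STMN3, a tubulin-binding stathmin, had 43.0, 42.8 and 79.1 CPM in SW480, 89.1, 62.8 and 79.5 CPM in SW480-B and 94.1, 37.5 and 38.7 CPM in SW480-gRNA-B-all.

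The tubulins overlapped between the lines apart from TUBB3. TUBB3, the isotype most used as a neuronal marker, was the lowest of the 3, with 4.10, 2.79 and 1.96 CPM in SW480, 2.63, 2.03 and 0.990 CPM in SW480-B and 1.19, 0.835 and 0.935 CPM in SW480-gRNA-B-all. All 3 libraries of SW480-gRNA-B-all were below SW480 (log2 fold change -1.59 ± 0.40, edgeR adjusted p = 0.056, DESeq2 adjusted p = 0.0052). TUBB2A had 18.2, 52.5 and 127 CPM in SW480, 66.4, 98.4 and 106 CPM in SW480-B and 71.0, 91.6 and 96.6 CPM in SW480-gRNA-B-all, and TUBB2B had 115, 175 and 212 CPM, 141, 228 and 229 CPM, and 153, 184 and 185 CPM. Replicate 1 was the lowest library of both genes in every line. TUBB2A and TUBB2B are near-identical copies, and how reads were divided between them is uncertain.

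**Figure D3:**
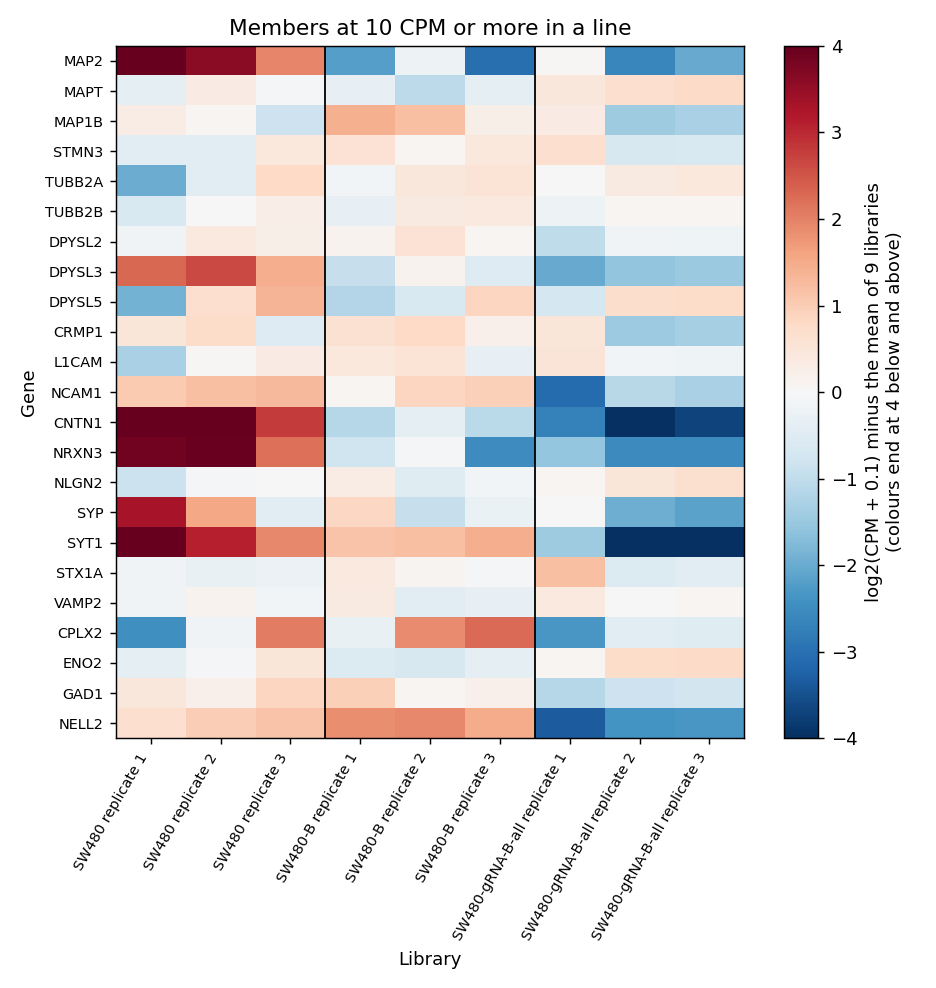
For the 23 members with a mean of at least 10 CPM in a line, log2(CPM + 0.1) in each library minus the mean of the 9 libraries (red above, blue below, colours ending at 4). The columns of SW480 differ among themselves for CPLX2, TUBB2A and SYP, and replicate 1 of SW480-gRNA-B-all differs from replicates 2 and 3 for MAP1B, STX1A and SYT1.

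Of the 9 genes of synaptic vesicles and exocytosis, SYT1 fell in SW480-gRNA-B-all (11.1%, against 4.66% of all genes). In SW480-B 0 were called by edgeR with all libraries of the pair of lines and no block. There 2 were lower and 1 higher at an unadjusted p under 0.05. DESeq2 called SYT1 lower and SNAP25 higher there. SYT1 (ENSG00000067715, chromosome 12, 79257773 to 79845788), the calcium sensor of vesicle fusion, had 187, 93.4 and 41.0 CPM in SW480, 23.7, 24.7 and 29.6 CPM in SW480-B, and 3.93, 0.134 and 0.0668 CPM in SW480-gRNA-B-all. The 3 lines did not overlap, and replicate 1 of SW480-gRNA-B-all stood well above replicates 2 and 3. Its log2 fold change was -6.29 ± 1.40 in SW480-gRNA-B-all (edgeR adjusted p = 0.043), called in 2 of 6 fits without 1 library and not with replicates 2 and 3 summed (edgeR adjusted p = 0.13), and -2.005 ± 0.48 in SW480-B (edgeR adjusted p = 0.11). SYP, a vesicle membrane protein, had 45.7, 13.4 and 3.42 CPM in SW480, 8.23, 2.39 and 3.82 CPM in SW480-B and 4.67, 1.10 and 0.968 CPM in SW480-gRNA-B-all, with overlap between the lines. Against SW480, edgeR did not call SYP when fitted to all libraries of the pair of lines with no block. With the replicate block, edgeR did call its fall in SW480-gRNA-B-all (adjusted p = 0.021). Without replicate 3 of SW480, edgeR called its fall in both lines. DESeq2 called it lower in SW480-gRNA-B-all (adjusted p = 0.0023). SNAP25, a SNARE protein of the plasma membrane, had 0.723, 1.55 and 0.946 CPM in SW480, 3.56, 3.81 and 3.18 CPM in SW480-B and 0.406, 0.901 and 1.00 CPM in SW480-gRNA-B-all. All 3 SW480-B libraries were above SW480, at a log2 fold change of 1.74 ± 0.45 that did not pass (edgeR adjusted p = 0.12).

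The other exocytosis genes were not called against SW480 when edgeR was fitted to all libraries of the pair of lines, with no block. STX1A, a syntaxin, had 12.0, 10.8 and 11.2 CPM in SW480, 17.2, 14.1 and 12.6 CPM in SW480-B and 30.3, 9.01 and 9.65 CPM in SW480-gRNA-B-all, where replicate 1 alone was high. VAMP2, the synaptobrevin of vesicles, was among the steadiest members, with 20.9, 25.6 and 21.5 CPM in SW480, 30.1, 17.4 and 18.6 CPM in SW480-B and 30.8, 23.0 and 24.6 CPM in SW480-gRNA-B-all. CPLX2, a complexin that clamps the SNARE complex, varied widely between libraries, with 8.43, 42.4 and 191 CPM in SW480, 37.5, 172 and 225 CPM in SW480-B and 9.18, 33.8 and 33.0 CPM in SW480-gRNA-B-all. In each line replicate 1 was the lowest library. SYT11 had 1.45, 2.24 and 0.400 CPM in SW480 against 0.339, 0.334 and 0.1002 CPM in SW480-gRNA-B-all (log2 fold change -2.39 ± 0.74, edgeR adjusted p = 0.092, and 0.046 with all 9 libraries in 1 fit, DESeq2 adjusted p = 0.026) and 0.464, 0.570 and 0.636 CPM in SW480-B. SYN1 and CPLX1 had a mean of under 2 CPM in every line.

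ELAVL2, NELL2, GAD1 and NEUROD1 completed the genes that fell in SW480-gRNA-B-all. ELAVL2 (ENSG00000107105, chromosome 9, 23690102 to 23826335), which encodes the neuronal RNA-binding protein HuB, had 11.0, 5.82 and 2.69 CPM in SW480, 0.773, 1.53 and 0.459 CPM in SW480-B, and 0.203, 0.0668 and 0.1002 CPM in SW480-gRNA-B-all. The 3 lines did not overlap. Its log2 fold change was -5.68 ± 0.73 in SW480-gRNA-B-all (edgeR adjusted p = 0.012) and -2.78 ± 0.66 in SW480-B (edgeR adjusted p = 0.10). NELL2 (ENSG00000184613, chromosome 12, 44902058 to 45315631) had 161, 202 and 221 CPM in SW480, 370, 381 and 281 CPM in SW480-B, and 9.89, 19.4 and 20.2 CPM in SW480-gRNA-B-all. All libraries of SW480-B were above SW480 and all of SW480-gRNA-B-all below it. The log2 fold change of NELL2 was -3.57 ± 0.32 in SW480-gRNA-B-all (edgeR adjusted p = 0.0054), called in 5 of 6 fits without 1 library, all but that without replicate 2 of SW480, and with replicates 2 and 3 summed (edgeR adjusted p = 0.036). In SW480-B it was 0.86 ± 0.24 (edgeR adjusted p = 0.15).

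GAD1 (ENSG00000128683, chromosome 2, 171669723 to 171717661), the enzyme that makes GABA, had 33.4, 27.8 and 43.8 CPM in SW480, 47.0, 25.6 and 27.9 CPM in SW480-B, and 10.9, 13.8 and 14.5 CPM in SW480-gRNA-B-all. Only the last line stood apart from SW480, with a log2 fold change of -1.43 ± 0.23 (edgeR adjusted p = 0.020). NEUROD1 (ENSG00000162992, chromosome 2, 182533022 to 182545554), a transcription factor of neurons and enteroendocrine cells, had 1.93, 0.861 and 0.473 CPM in SW480, 1 count over the 3 libraries of SW480-B and 0 counts over those of SW480-gRNA-B-all. Set against 3 counts over the line, the fall was at least 32.7-fold in SW480-gRNA-B-all (edgeR adjusted p = 0.031). The ratio of SW480 to SW480-B was 90.3, with a 95% counting interval of 15.8 to 3606 (edgeR adjusted p = 0.036). Among the remaining enzymes and granule genes, ENO2, the neuronal enolase, had 52.9, 66.7 and 98.9 CPM in SW480, 48.0, 45.1 and 53.2 CPM in SW480-B and 73.4, 115 and 118 CPM in SW480-gRNA-B-all, overlapping with SW480. RTN1, a reticulon, had 1.82, 3.14 and 0.727 CPM in SW480, 4.56, 9.98 and 3.15 CPM in SW480-B and 4.10, 8.88 and 8.75 CPM in SW480-gRNA-B-all. Both lines lay above SW480 in all libraries, but RTN1 was not called by edgeR (log2 fold change 1.92 ± 0.58, edgeR adjusted p = 0.086 in SW480-gRNA-B-all, and 1.66 ± 0.63, edgeR adjusted p = 0.26 in SW480-B). DESeq2 called RTN1 higher in SW480-gRNA-B-all. CHGB, chromogranin B of secretory granules, had 1.93, 2.83 and 1.31 CPM in SW480, 3.17, 2.25 and 3.53 CPM in SW480-B and 6.54, 3.77 and 4.91 CPM in SW480-gRNA-B-all (log2 fold change 1.32 ± 0.40, edgeR adjusted p = 0.088). All 3 libraries of SW480-gRNA-B-all were above SW480, and DESeq2 called CHGB higher there. UCHL1 and SCG5 were below 10 CPM throughout and were not called.

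The BASP1-expressing lines also differed from each other. Compared with SW480-B, 2.31% of 15846 genes passed as higher and 4.37% as lower in SW480-gRNA-B-all, and so did 2 and 9 of the 33 members tested. MAPT and ENO2 were the ones that were higher, at log2 fold changes of 1.20 ± 0.25 (edgeR adjusted p = 0.024) and 1.07 ± 0.21 (edgeR adjusted p = 0.020). The 9 that were lower were DPYSL3, DPYSL4, NCAM1, CNTN1, SYT1, SNAP25, ELAVL2, GAD1 and NELL2. NELL2 differed most firmly, with a log2 fold change of -4.38 ± 0.32 (edgeR adjusted p = 0.000745), and was called in 6 of 6 fits without 1 library and after summing replicates 2 and 3 (edgeR adjusted p = 0.0043), where it was the 1 member left. ELAVL2 had under 10 counts in every library of SW480-gRNA-B-all and entered through SW480-B. DPYSL4, CNTN1 and SYT1 had under 10 counts in replicate 3 of SW480-gRNA-B-all and also passed the filter only through SW480-B. Without replicate 2 of SW480-B, GAD1 and NELL2 were called lower. Without replicate 2 of SW480-gRNA-B-all, NCAM1 and NELL2 were, and without replicate 3, SNAP25 and NELL2 were. Over all genes, 389, 302 and 285 were called lower in these fits. MAPT and ENO2 were not called in these 3 fits or with the summed libraries, and without replicate 1 of SW480-B MAPT was called and ENO2 was not.

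Within a line, the members varied with the library. Of the members with a mean of at least 10 CPM, the highest and the lowest library differed by over 2-fold in 12 of 23 in SW480, 4 of 18 in SW480-B and 8 of 17 in SW480-gRNA-B-all. Among the 37 members with at least 1 CPM in SW480, replicate 3 held the lowest value of 20, including MAP2, DPYSL3, CHL1, CNTN1, NRXN3, SYP, SYT1, ELAVL2 and NEUROD1, and the highest of 12, including TUBB2A, TUBB2B, L1CAM, CPLX2, ENO2 and NELL2. Replicate 1 held the highest of 14 and the lowest of 14. BASP1 had 11.9, 8.03 and 0.691 CPM in these libraries. In SW480-gRNA-B-all, replicate 1 held the lowest value of 14 of 23 members and the highest of 9.

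Other genes of the same kinds, taken from lists chosen by function, are given by counts. Of REST and 18 of its corepressors, all 19 were tested, and RCOR2 fell in SW480-gRNA-B-all (5.26%, near the 4.66% of all genes), while 0 were called in SW480-B (edgeR; 4 lower and 0 higher at an unadjusted p under 0.05; DESeq2 called 1 lower). REST itself had 75.7, 87.2 and 69.8 CPM in SW480, 90.5, 78.3 and 59.3 CPM in SW480-B and 78.5, 73.0 and 77.9 CPM in SW480-gRNA-B-all, with overlap between all lines (edgeR adjusted p = 0.91 for SW480-gRNA-B-all, 0.99 for SW480-B). RCOR2, a REST corepressor, had 11.8, 5.41 and 3.38 CPM in SW480 and 1.08, 1.60 and 1.04 CPM in SW480-gRNA-B-all (edgeR adjusted p = 0.038).

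Of 25 proneural transcription factors only 6 were expressed enough to be tested. POU3F2, MYT1 and EBF3 fell in SW480-gRNA-B-all (3 of 6, 50% against 4.66% of all genes). POU3F2 and MYT1 also fell in SW480-B (2 of 6, 33.3% against 1.25%). POU3F2, a POU factor of neural progenitors, had 58.5, 40.2 and 14.4 CPM in SW480, 1.12, 0.749 and 0.813 CPM in SW480-B, and 0.474, 1.03 and 1.14 CPM in SW480-gRNA-B-all (log2 fold change -5.42 ± 0.64, edgeR adjusted p = 0.0091). In SW480-B it changed by -5.36 ± 0.57 (edgeR adjusted p = 0.0093). MYT1, a zinc finger factor of neuronal differentiation, had 157, 32.5 and 12.0 CPM in SW480, 2.28, 0.642 and 0.919 CPM in SW480-B, and 0.779, 0.0668 and 0.0334 CPM in SW480-gRNA-B-all (edgeR adjusted p = 0.027 for SW480-gRNA-B-all, 0.044 for SW480-B). Both were below SW480 in every library of both lines. MYT1 had under 10 counts in replicates 2 and 3 of SW480-gRNA-B-all and passed the filter there only through SW480. Of the 38 members tested in SW480-gRNA-B-all, 15 were below SW480 in every library (20% of all genes). In SW480-B 10 of 39 were (11.8% of all genes).

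Synaptic genes outside the members moved in both directions. Of 32 presynaptic genes tested, 1 rose (3.1%, against 1.89% of all genes) and 4 fell (12.5%, against 4.66%) in SW480-gRNA-B-all. In SW480-B 2 fell (6.25%, against 1.25%). By DESeq2, 8 rose and 7 fell in the first line and 1 and 4 in the second. The median log2 fold change of these genes in SW480-gRNA-B-all was 0.36, 9 were higher and 5 lower at an unadjusted p under 0.05 from edgeR, and in 13 of 32 (40.6%, against 18% of all genes) all 3 libraries lay above SW480. LIN7A and DOC2B were called lower in both lines, SYT7 and CADPS2 in SW480-gRNA-B-all. SYT7, a synaptotagmin, had 88.7, 100.2 and 39.5 CPM in SW480 and 13.3, 7.88 and 8.88 CPM in SW480-gRNA-B-all (edgeR adjusted p = 0.014), while SV2A, a vesicle glycoprotein, had 9.61, 12.8 and 13.7 CPM against 21.7, 27.1 and 28.8 CPM (edgeR adjusted p = 0.034). Of 25 postsynaptic genes tested, 3 rose (12%, against 1.89% of all genes) and 4 fell (16%, against 4.66%) in SW480-gRNA-B-all. In SW480-B 3 fell (12%, against 1.25%). Those higher were DLG4, GRIK4 and SYNPO, those lower GRIN2B, DLGAP1, GABRB2 and GRIK2, the last 3 of them called in both lines. By DESeq2, 4 rose and 7 fell in the first line and 4 and 6 in the second. DLG4, the scaffold PSD-95, had 3.72, 4.72 and 5.82 CPM in SW480, 15.03, 11.5 and 8.06 CPM in SW480-B, and 31.6, 27.4 and 29.5 CPM in SW480-gRNA-B-all. The libraries did not overlap, and its log2 fold change was 2.63 ± 0.23 in SW480-gRNA-B-all (edgeR adjusted p = 0.0054), called in 5 of 6 fits without 1 library and with replicates 2 and 3 summed (edgeR adjusted p = 0.039), and 1.31 ± 0.36 in SW480-B (edgeR adjusted p = 0.15). GRIN2B, an NMDA receptor subunit, had 40.3, 24.4 and 8.11 CPM in SW480, 0.502, 1.28 and 0 CPM in SW480-B and 0.135, 0.0668 and 0.1002 CPM in SW480-gRNA-B-all (edgeR adjusted p = 0.0071, and 0.063 in SW480-B). With under 10 counts in every library of the line, LIN7A, GRIN2B, DLGAP1, GABRB2 and GRIK2 in SW480-gRNA-B-all, and LIN7A, DOC2B, DLGAP1, GABRB2 and GRIK2 in SW480-B, entered the test only through SW480, so that they had to differ. DOC2B had 27 counts over SW480-gRNA-B-all, at most 12 in a library, and also passed the filter there only through SW480.

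Of 28 neuronal migration genes tested, CNTNAP2 fell in SW480-gRNA-B-all (edgeR adjusted p = 0.037, 3.57% of the list against 4.66% of all genes), and 0 were called in SW480-B (edgeR; 3 lower and 6 higher at an unadjusted p under 0.05; DESeq2 called 2 lower). Of 27 other cytoskeleton and growth cone genes, GAP43, a growth cone protein, fell in SW480-gRNA-B-all, from 3.00, 2.93 and 1.13 CPM to 0.508, 0.367 and 0.267 CPM (edgeR adjusted p = 0.033, 3.70% of the list against 4.66%), and 0 were called in SW480-B (edgeR; 4 lower and 2 higher at an unadjusted p under 0.05; DESeq2 called 4 lower and 1 higher). GAP43 had under 10 counts in replicate 3 of SW480-gRNA-B-all and passed the filter there only through SW480. Of 12 neuropeptide and granule genes tested, PAM and PCSK1N fell in SW480-gRNA-B-all (16.7% of the list against 4.66%). PAM, which amidates neuropeptides, had 654, 544 and 275 CPM in SW480 and 111, 117 and 114 CPM in SW480-gRNA-B-all (edgeR adjusted p = 0.017). None of the 12 was called in SW480-B, where 0 had an adjusted p under 0.05 in edgeR, 1 was lower and 1 higher at an unadjusted p under 0.05, and DESeq2 called 1 lower. When replicates 2 and 3 were summed, DLG4 and GRIN2B (edgeR adjusted p = 0.039 and 0.042) were the only genes of these lists named here that were called.

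**Figure D4:**
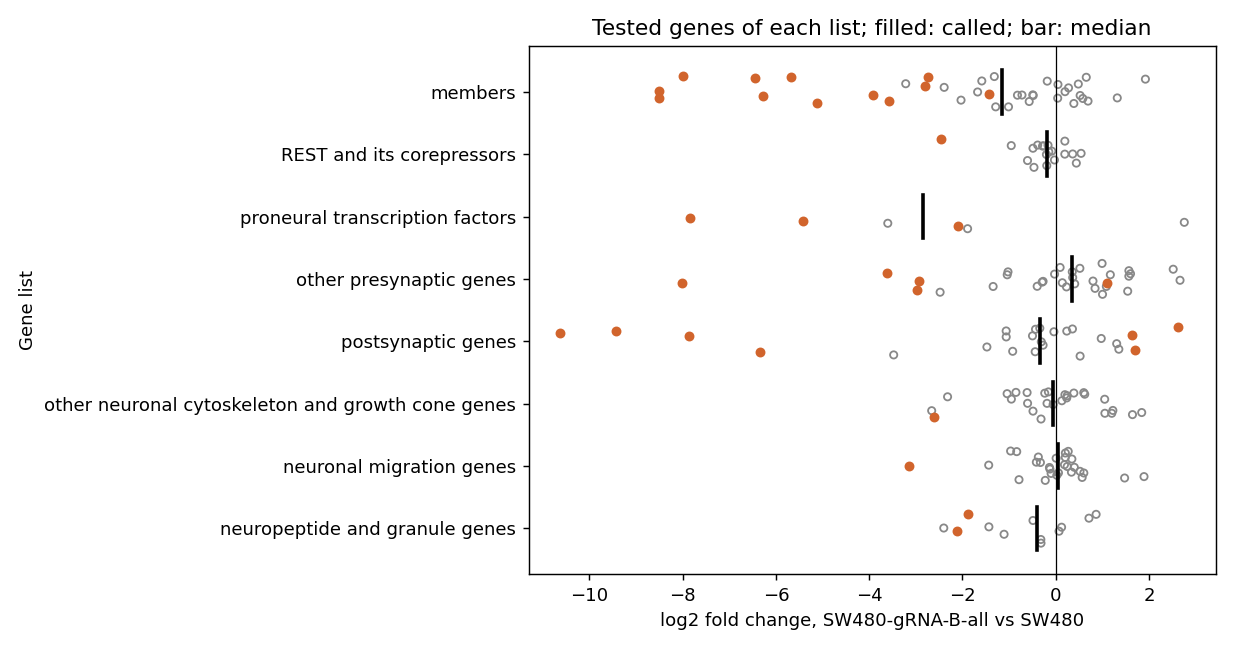
The log2 fold change between SW480-gRNA-B-all and SW480 of each tested gene in the members and in the 7 other lists. Filled points were called and bars are the medians. Called genes lie on both sides of 0 for the presynaptic and postsynaptic lists and below 0 for the members, whose median was -1.15.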

How the data were processed

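RNA-seq libraries of SW480 cells and of SW480-B and SW480-gRNA-B-all, which express BASP1, 3 of each line, were analysed from the tables the authors deposited, raw whole-number counts per Ensembl gene on GRCh37. How the reads were counted, with which program, version and strand setting, is not given in the sources used here. Lines reporting reads on no feature (5.22% to 9.93% of each library) or on several (3.09% to 3.44%) were kept out of library sizes and tests, and the alignment metrics files were not used. Symbols and coordinates came from GENCODE v44 lifted to GRCh37 (55665 of 63677 identifiers, 99.4% of counts), and promoters from RefSeq (GRCh38.p14).

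The members and the lists of other genes were chosen with earlier results of these data known. For each pair of lines, its 6 libraries were fitted over all genes with edgeR 4.0.16 in R 4.3.3 (limma 3.58.1). Genes passed filterByExpr (a count of 10, a total of 15), TMM scaling and a robust quasi-likelihood fit were used, and p-values were adjusted after Benjamini and Hochberg. The test was also run on simulated counts drawn independently for each library. That run does not cover the alike replicates of SW480-gRNA-B-all or the shared deviations of same-numbered libraries. Standard errors were taken from the F statistics (the log2 fold change over the root of F). CPM used TMM factors over the 9 libraries. Values in each library are given for members with an adjusted p under 0.05 in any comparison, with a mean of at least 10 CPM in a line, or, where the higher line had a mean of 1 CPM or more, with no overlap and a change above 2-fold against SW480, and for up to 5 called genes per direction of the other lists, some by name only. DESeq2 1.42.0, other scaling, filters and sample sets, a replicate block and fits without 1 library were alternatives.

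Libraries with the same number deviated together between SW480-B and SW480 (correlation of deviations from the line means 0.29, 0.322 and 0.393). Their numbers were taken as pairs in the alternative fit with a replicate block, and the calls given first did not use the pairs. For SW480-gRNA-B-all this held for replicates 1 and 3 (0.291 and 0.266 with SW480, 0.235 and 0.241 with SW480-B). It did not hold for replicate 2 (-0.037 with SW480 and -0.087 with SW480-B). Precision is set by the depth, 25238831 to 29355669 counts per library, and by 3 libraries a line. Markers of other cells, summed over the 9 libraries, ranged from 12.6 to 52.9 CPM for 8 genes of glia, from 2.90 to 10.9 CPM for 8 of fibroblasts and from 1.03 to 5.94 CPM for 6 of leukocytes, and their part in the results was not tested.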

Additional observations from a re-analysis of the deposited data

Results flagged for a closer look

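For 11 members, the change against the shared SW480 libraries differed between the BASP1-expressing lines, by the direct edgeR test of SW480-gRNA-B-all against SW480-B at an adjusted p under 0.05 and a change above 2-fold. Of these, MAPT and ENO2 were the higher ones in SW480-gRNA-B-all, by log2 fold changes of 1.20 and 1.07. The others were lower there, NELL2 by -4.38, SYT1 by -4.24, CNTN1 by -2.91, ELAVL2 by -2.86, NCAM1 by -2.29, SNAP25 by -2.19, DPYSL4 by -1.71, GAD1 by -1.36 and DPYSL3 by -1.33, all log2 fold changes. NELL2 was the 1 member that was called in each of the fits without 1 library and also when the alike replicates 2 and 3 were taken as 1 library.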

How the results depend on the processing

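With 3 libraries a line, counts of calls moved with the libraries and the filter, and the causes were not tested. With RLE size factors, counts and medians held to within 1.5 times or the spread between replicates. Between SW480-gRNA-B-all and SW480, 304 genes were called higher and 751 lower. These counts became 860 and 1520 with DESeq2, 20 and 77 with replicates 2 and 3 summed, and 516 higher with all 9 libraries in 1 fit. Without 1 library they ranged from 1 to 961 and from 7 to 1698. Members called higher were 0, and 2 with DESeq2. Members called lower were 12, 3 with those replicates summed, and 0 to 18 without 1 library. The members' median of -1.15 became -0.66 with at least 1 CPM in 3 libraries.

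For SW480-B against SW480, 15 genes were called higher and 201 lower. They became 371 and 732 with DESeq2, 92 and 360 with all 9 libraries, 198 and 537 with no filter, and 132 lower with the 1 CPM filter, and ranged from 0 to 226 and from 0 to 695 without 1 library. Members called lower were 5, 9 with DESeq2, 3 with the 1 CPM filter, 8 with no filter, and 0 to 10 without 1 library. Members called higher were 0, and 1 with DESeq2. The median of -0.41 became 0.0082 with the 1 CPM filter and ranged from -0.35 to -0.067 without 1 library. The block on replicate number gave 56 higher and 263 lower genes, and 1 higher and 7 lower members.

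For SW480-gRNA-B-all against SW480-B, 366 genes were called higher and 693 lower. They became 558 higher with DESeq2, 181 higher with all 9 libraries, and 141 and 305 with replicates 2 and 3 summed, and ranged from 135 to 607 and from 285 to 941 without 1 library. Members called were 2 higher and 9 lower, 5 lower with all 9 libraries, 0 and 1 with replicates 2 and 3 summed, and 0 to 2 and 2 to 9 without 1 library. The median of -0.66 became -0.93 with DESeq2 and -0.92 with no filter, and ranged from -1.04 to -0.54 without 1 library. In the comparisons of SW480-gRNA-B-all, the numbers did not pair replicate 2, and the block gave 14 members lower against SW480 and 11 against SW480-B. Of 79 results on single genes, 55 were called in the edgeR fits of each pair of lines, and no called direction reversed in any alternative run. Members that were not called could change sign without 1 library. Between SW480-gRNA-B-all and SW480, the log2 fold change then ran from -0.53 to 0.42 for STMN3 and from -0.66 to 0.48 for DPYSL5. The call was lost in 41 of the 44 called that apply without replicate 2 of SW480, and in 37 of 43 when replicates 2 and 3 were summed.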
